A study of Drosophila melanogaster with 6 samples.

Results

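The Drosophila tetraspanin genes were followed in S2 cells, a line derived from fly embryos, after double-stranded RNA (dsRNA) against the RNA helicase gene Hlc. Members were every gene of the count table with a symbol of the family's form (Tsp, a cytological number and a letter), together with TM4SF and lbm, which belong to the family under other symbols, giving 36 of 23882 features. The treated groups received Hlc dsRNA 2 or Hlc dsRNA 3, and the control group received dsRNA against beta-gal. All 6 libraries, 2 per group, were made from polyA RNA taken 3 days into the treatment. The labels describe the line as stem cells derived from embryos and name no other treatment, so all 3 groups share the exposure to dsRNA.

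Tetraspanins cross the membrane repeatedly and expose a small and a large loop on the outside of the cell. They bind other membrane proteins, among them integrins and proteases, and gather them into patches of membrane. In Drosophila, members are known from Notch activation, from septate junctions of the gut, from the forming neuromuscular synapse and from the turnover of rhodopsin in the eye, and 18 of the genes lie close together in the 42E cluster on chromosome 2R.

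The target was reduced in every treated library. Hlc averaged 18.8 ± 1.80 CPM with Hlc dsRNA (SD, n = 4) and 316 ± 1.15 CPM in control cells (SD, n = 2), a log2 fold change of -4.08 (adjusted p = 3.48e-08, SE 0.075) by edgeR's quasi-likelihood test. CPM here is the count scaled to 1e6 counts of TMM-adjusted library size, where TMM corrects for differences in composition. Libraries held 56195472 to 84283999 counts, and the TMM factors were 1.13 to 1.16 with Hlc dsRNA but 0.751 and 0.778 in control cells, so the size of each change depends on the scaling chosen. With library size alone the median change of all tested features was 0.62 on the log2 scale, against 0.04 with TMM and 0.19 under upper-quartile scaling. Of the blood cell markers that S2 cells carry, Col4a1 had 5060.1 ± 199 CPM with Hlc dsRNA and 2658 ± 132 CPM in control cells (SD, n = 4 and 2, as for all such pairs), and srp had 249 ± 29.8 CPM with Hlc dsRNA and 371 ± 34.02 CPM in control cells. Hml, the plasmatocyte marker hemolectin, had only 0.448 ± 0.229 CPM with Hlc dsRNA and 0.697 ± 0.347 CPM in control cells. Beside the marker lists that follow, 32.2% of all 11293 tested features were higher and 32.6% lower at an adjusted p under 0.05. The plasmatocyte list summed to 9664 to 10830 CPM in Hlc dsRNA libraries and 5729 to 6046 CPM in control libraries, with 5 of its 9 tested genes higher, 2 lower and none of its 10 at 0. Most of these sums came from Col4a1 and from vkg, which averaged 4237 CPM with Hlc dsRNA and 2246 CPM in control cells. The lamellocyte list summed to 461 to 508 CPM in Hlc dsRNA libraries and 1187 to 1195 CPM in control libraries, with 4 of 4 genes lower and none at 0. Here most of the sum was cher, which averaged 450 CPM with Hlc dsRNA and 1059 CPM in control cells. The crystal cell list stayed under 1 CPM in every library, with PPO2 at 0, and 1 of its 3 genes was tested and not called. A list of ovarian, germline and neuronal genes summed to 45.03 to 52.3 CPM in Hlc dsRNA libraries and 24.1 to 28.05 CPM in control libraries, with 2 of its 4 tested genes higher and tj at 0. The part of these shifts in the results below was not tested, and in bulk RNA fewer cells of a type and less RNA per cell cannot be told apart.

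S2 cells expressed 14 of the 36 members at 1 CPM or more in all 6 libraries. That level was reached in both libraries by 16 members with dsRNA 2, 15 with dsRNA 3 and 16 in control cells. Per kb of exon, Tsp42Ee had the highest level, with 306 CPM per kb with Hlc dsRNA and 479 CPM per kb in control cells. Tsp42Ed followed in control cells, with 98.2 CPM per kb with Hlc dsRNA and 279 CPM per kb in control cells, and then Tsp42Ef, with 86.3 CPM per kb with Hlc dsRNA and 108 CPM per kb in control cells. The next 3 lay close together in control cells, within the spread of the Tsp42Ea and Tsp3A control libraries. Tsp86D had 44.5 CPM per kb with Hlc dsRNA and 89.3 CPM per kb in control cells, Tsp42Ea had 9.33 CPM per kb with Hlc dsRNA and 88.7 CPM per kb in control cells, and Tsp3A had 66.95 CPM per kb with Hlc dsRNA and 80.8 CPM per kb in control cells. With Hlc dsRNA, Tsp42Ea stood below several genes that it exceeded in control cells. Among these were Tsp39D, with 30.8 CPM per kb with Hlc dsRNA and 30.7 CPM per kb in control cells, lbm, with 18.5 CPM per kb with Hlc dsRNA and 9.64 CPM per kb in control cells, and Tsp2A, with 14.4 CPM per kb with Hlc dsRNA and 12.6 CPM per kb in control cells. The summed family level was 1158 and 1139 CPM with dsRNA 2, 1055 and 1003 CPM with dsRNA 3, and 1914 and 1858 CPM in control cells. As CPM of unadjusted library size the same sums were 1327 and 1284 with dsRNA 2, 1202 and 1164 with dsRNA 3, and 1437 and 1445 in control cells, so the sum was lower in every Hlc dsRNA library on both scales. Tsp42Ee alone gave 40.0 to 42.1% of the summed CPM in Hlc dsRNA libraries and 36.8 to 37.5% in control libraries.

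**Figure D1:**
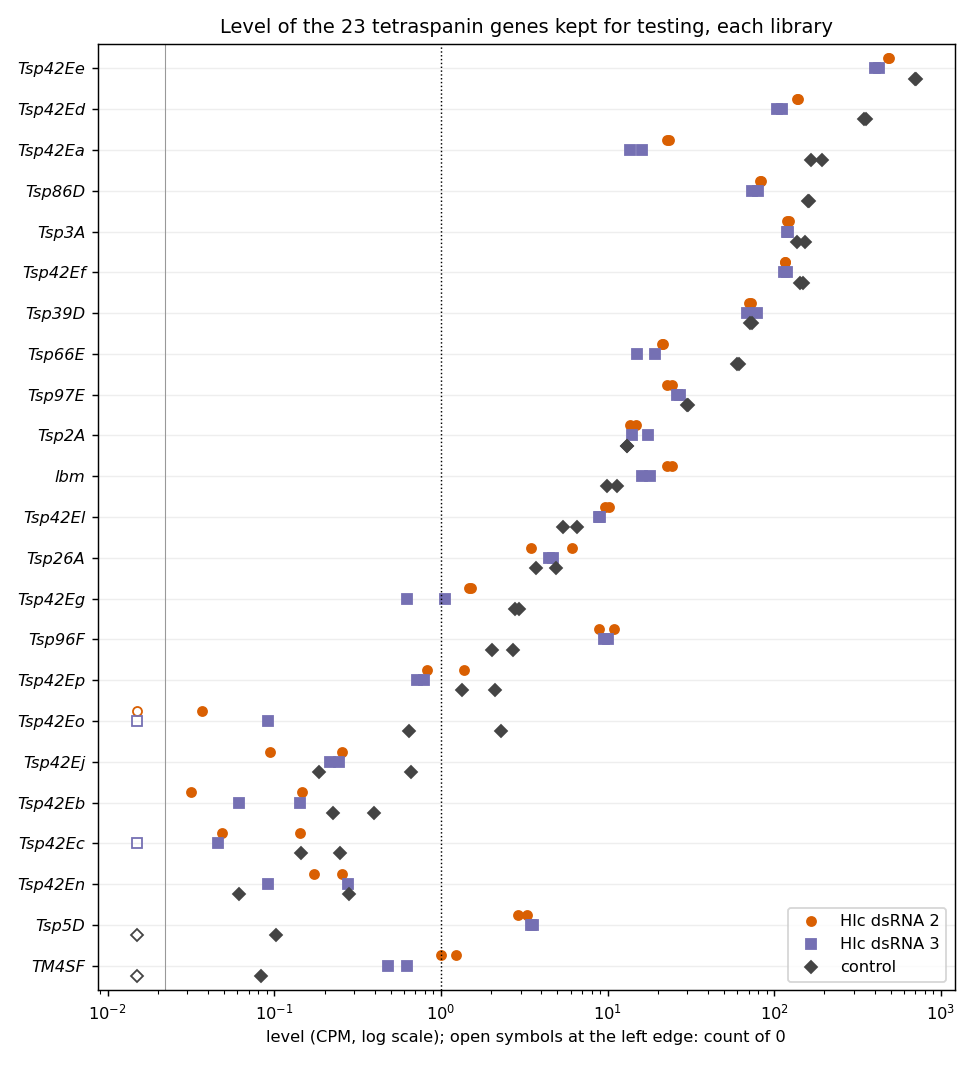
Level of the 23 members kept for testing in each library, in CPM on a log axis, with Hlc dsRNA 2, Hlc dsRNA 3 and control libraries as separate symbols and counts of 0 as open symbols at the left edge. Tsp42Ee lies highest in every library, and Tsp5D sits near 3 CPM in the 4 Hlc dsRNA libraries but at 0.103 and 0 CPM in control libraries.

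With Hlc dsRNA, Tsp42Ea, Tsp42Ed, Tsp86D and Tsp66E were lower than in control cells, by 2.01-fold for Tsp86D to 9.75-fold for Tsp42Ea. Tsp5D and TM4SF, nearly absent from control cells, were higher, as were Tsp96F, lbm and Tsp42El. A total of 23 members passed the low-count filter. With both Hlc dsRNAs together, 5 of these rose and 11 fell at an adjusted p under 0.05, or 69.6% of those tested, where 64.8% of all 11293 tested features were called, 32.2% higher and 32.6% lower. The overall share of called members was thus near that of the table. The members' median log2 fold change was -0.32, against 0.04 for all tested features. Beyond 2-fold, 3 members were higher and 6 lower, where 28.2% of all tested features passed that size, 14.9% higher and 13.2% lower. With dsRNA 2 alone 5 rose and 10 fell, where 60.7% of all features were called, 30.4% higher and 30.3% lower, and with dsRNA 3 alone 5 rose and 10 fell, where 61.6% were called, 29.9% higher and 31.6% lower. Both single comparisons use the same 2 control libraries. All 4 Hlc dsRNA libraries lay above both control libraries for 6 members and below both for 12, where 71.5% of all tested features had groups that did not overlap, 36.2% above and 35.4% below.

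**Figure D2:**
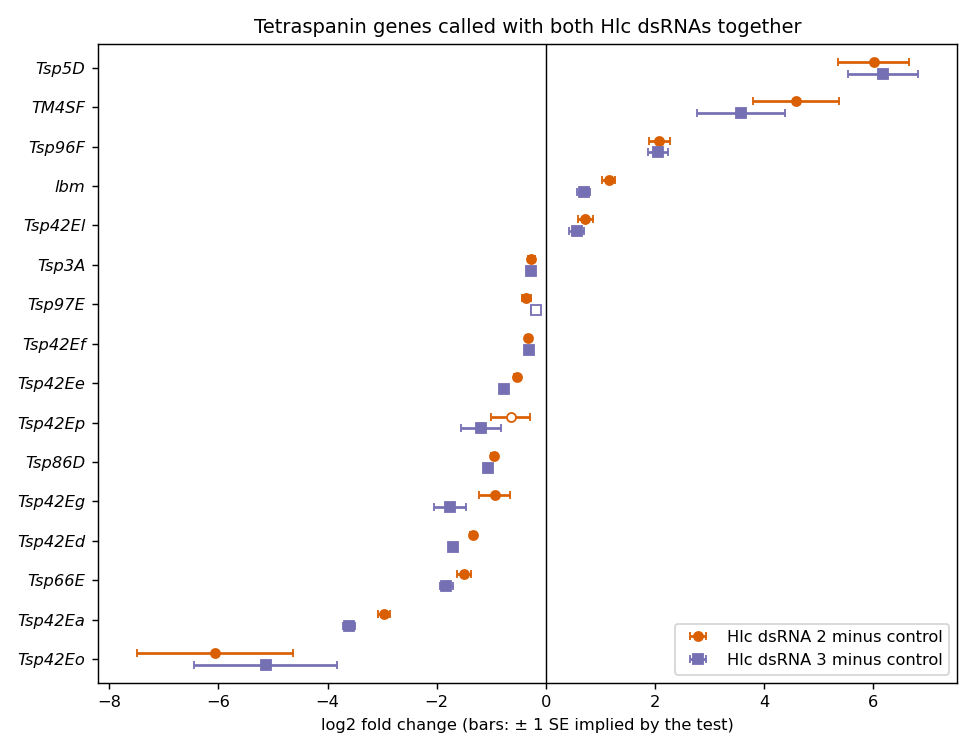
Log2 fold change of the 16 called members with Hlc dsRNA 2 and with Hlc dsRNA 3, each minus control, with bars of 1 SE and filled symbols for an adjusted p under 0.05. Under both dsRNAs Tsp5D, TM4SF and Tsp96F stand to the right of 0 and Tsp42Eo and Tsp42Ea far to its left; Tsp3A, Tsp42Ef and Tsp97E, drawn left of 0 here, turn to the right of it when libraries are scaled by size alone.

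The members of the TspanC8 group, Tsp86D, Tsp3A and Tsp26A, bind the protease Kuzbanian and act in Notch activation. Tsp86D (chromosome 3R, 10868708 to 10870555) had 82.9 and 82.03 CPM with dsRNA 2, 80.3 and 73.2 CPM with dsRNA 3, and 161 and 159 CPM in control cells. All 4 Hlc dsRNA libraries were near one level, about 2.01-fold below the controls, and its log2 change was -1.01 (adjusted p = 2.31e-06, SE 0.049). Tsp3A (chromosome X, 2617758 to 2619738) had 122 and 119 CPM with dsRNA 2, 121 and 119 CPM with dsRNA 3, and 153 and 137 CPM in control cells. Its decrease was small, -0.27 (adjusted p = 0.00323, SE 0.053), was not called under upper-quartile scaling (-0.13, adjusted p = 0.0887, the highest of its alternatives, which began at 7.76e-05) and became an increase of 0.31 with library size alone. Tsp26A had 3.47 and 6.10 CPM with dsRNA 2, 4.68 and 4.48 CPM with dsRNA 3, and 3.72 and 4.91 CPM in control cells. These groups overlapped and the change of 0.11 (adjusted p = 0.706, SE 0.24) was not called, although library size alone gave a called change of 0.69. Thus the member of the group with the lowest level per length did not pass the test, and the 2 others fell under TMM scaling.

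Among 25 genes of the Notch pathway and its proteolysis, 19 were tested, 10 rose, 6 fell and 3 were not called, and the median change was 0.35 on the log2 scale, against 0.04 over all tested features, of which 32.2% were higher and 32.6% lower. With library size alone 14 rose and 1 fell, and 77.7% of all calls were then higher. The receptor gene N had 87.2 and 90.9 CPM with dsRNA 2, 92.8 and 92.95 CPM with dsRNA 3, and 23.5 and 23.7 CPM in control cells. Every Hlc dsRNA library was above both controls, and the change was 1.95 (adjusted p = 1.42e-07, SE 0.051). Ser, a Notch ligand, had 117 ± 3.37 CPM with Hlc dsRNA and 35.1 ± 5.70 CPM in control cells, a change of 1.74 (adjusted p = 4.14e-06, SE 0.10). Both ubiquitin ligases that act on the ligands were called, in opposite directions: mib1 fell by 1.66 on the log2 scale, with 94.1 ± 3.27 CPM with Hlc dsRNA and 296 ± 6.13 CPM in control cells, and neur rose, with a change of 1.23 (adjusted p = 3.80e-05, SE 0.10). The protease gene kuz itself, chosen after its values were seen, had 248 ± 9.87 CPM with Hlc dsRNA and 189 ± 9.58 CPM in control cells and a change of 0.39 (adjusted p = 2.01e-04, SE 0.045). The ligand gene Dl was at 0 in all libraries.

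Tsp2A, a component of the smooth septate junctions of gut cells, lies within the MTPAP locus (chromosome X, 1346553 to 1348143). It had 14.7 and 13.6 CPM with dsRNA 2, 17.4 and 14.00 CPM with dsRNA 3, and 13.01 and 13.03 CPM in control cells. All 4 Hlc dsRNA libraries were above both controls, but by an amount near the spread of the treated libraries, and the change of 0.19 (adjusted p = 0.168, SE 0.11) was not called. It was called under upper-quartile scaling (0.34, adjusted p = 0.0337) and on library size alone (0.78, adjusted p = 6.02e-04), and over all alternatives the adjusted p reached 0.352. Of 8 septate junction genes, 6 were tested, 1 rose and 4 fell, and the median change was -0.64 on the log2 scale, beside the 32.2% higher, 32.6% lower and median of 0.04 of all tested features. Under upper-quartile scaling 2 rose and 4 fell, and on library size alone 2 rose and 2 fell. Of the calls over all features, 57.4% were higher under upper-quartile scaling and 77.7% on library size alone. The gene that rose, l(2)gl, changed by 0.17 and was not called without dsRNA 2 replicate 1, without either dsRNA 3 library or without control replicate 1. Ssk, which encodes the junction protein that works with Tsp2A, had 1.68 and 1.14 CPM with dsRNA 2, 1.44 and 1.15 CPM with dsRNA 3, and 4.35 and 2.93 CPM in control cells. Its change was -1.42 (adjusted p = 0.00175, SE 0.25). The adhesion gene Fas3 fell furthest of the list, with 0.604 ± 0.194 CPM with Hlc dsRNA and 39.7 ± 1.07 CPM in control cells and a change of -6.05 (adjusted p = 7.40e-07, SE 0.23). The band 4.1 gene cora and the polarity gene scrib changed by -0.75 and -0.52, both called, but with library size alone cora was at -0.17 and scrib at 0.06, neither called. The junction gene mesh had 16 counts over the 4 Hlc dsRNA libraries and 0 in control libraries, and hoka, listed as CG13704, had 0 throughout.

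The 42E cluster spans 73.4 kb of chromosome 2R, from 6992676 to 7066113 in BDGP6.54, and holds 18 members and 9 other genes. Its summed level was 801 and 791 CPM with dsRNA 2, 692 and 667 CPM with dsRNA 3, and 1417 and 1379 CPM in control cells. These sums are on the TMM scale only, and the size of the gap between groups depends on that scaling. Within it, neighbouring genes moved in different directions: Tsp42Ea, Tsp42Ed, Tsp42Ee, Tsp42Ef, Tsp42Eg, Tsp42Eo and Tsp42Ep were called lower, and the adjacent pair Tsp42El and lbm was called higher. Calls in both directions were common over the table, where 32.2% of all tested features were higher and 32.6% lower. Under library size alone Tsp42Ef was called higher at 0.26, and Tsp42Ee and Tsp42Ep were not called.

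Tsp42Ea, at the left end of the cluster, had 23.3 and 22.6 CPM with dsRNA 2, 15.96 and 13.6 CPM with dsRNA 3, and 193 and 166 CPM in control cells. The treated libraries were 9.75-fold lower on average, a change of -3.29 (adjusted p = 1.13e-07, SE 0.082). Of its exonic bases, 4.80% also belong to CG30159, which starts 5 bp further along on the same strand, and that neighbour had 62.7 and 63.4 CPM with dsRNA 2, 56.2 and 58.1 CPM with dsRNA 3, and 51.5 and 52.98 CPM in control cells. CG30159 thus did not fall with it; its change of 0.20 (adjusted p = 0.00857, SE 0.048) was called, but not without control replicate 1 (adjusted p = 0.0523, the highest of its alternatives, which began at 1.50e-05). Tsp42Ed had 139 and 137 CPM with dsRNA 2, 111 and 104 CPM with dsRNA 3, and 353 and 344 CPM in control cells. Here too the groups were far apart, and the change was -1.52 (adjusted p = 1.64e-07, SE 0.041), or 2.87-fold lower. Tsp42Ee, the most abundant member, had 487 and 478 CPM with dsRNA 2, 422 and 403 CPM with dsRNA 3, and 704 and 698 CPM in control cells. It was 1.57-fold lower with a change of -0.65 (adjusted p = 1.38e-05, SE 0.045), which shrank to -0.07 on library size alone and lost its call (adjusted p = 0.232, the highest of its alternatives, with 3.46e-50 the lowest). Tsp42Ef had 116 and 116 CPM with dsRNA 2, 114.6 and 119 CPM with dsRNA 3, and 142 and 148 CPM in control cells. The change was -0.32 (adjusted p = 3.92e-04, SE 0.042), and 0.26 with library size alone. Tsp42Eg had 1.48 and 1.52 CPM with dsRNA 2, 0.627 and 1.05 CPM with dsRNA 3, and 2.96 and 2.78 CPM in control cells. Its level was low in all groups, and the change was -1.35 (adjusted p = 0.00175, SE 0.23).

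The pair that rose stands next to one another on the same strand. Late bloomer, lbm, takes part in synapse formation at the neuromuscular junction. It had 22.6 and 24.4 CPM with dsRNA 2, 18.01 and 16.1 CPM with dsRNA 3, and 11.3 and 9.85 CPM in control cells. Each Hlc dsRNA library exceeded both controls, and the change was 0.92 (adjusted p = 1.75e-04, SE 0.10), 1.89-fold. Tsp42El had 9.68 and 10.1 CPM with dsRNA 2, 8.96 and 8.82 CPM with dsRNA 3, and 5.42 and 6.56 CPM in control cells. Its change was 0.65 (adjusted p = 0.0025, SE 0.12), and the groups did not overlap.

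Tsp42Eo and Tsp42Ep lie on opposite strands, and 100% of the exonic bases of Tsp42Eo fall within exons of Tsp42Ep. Of the exonic bases of Tsp42Ep, 30.7% are shared with Tsp42Eo. Whether the counting used strand is not given in the sources used here, so reads in the shared bases may not have been told apart. All counts of Tsp42Eo, and that share of Tsp42Ep, are therefore uncertain. Tsp42Eo had 3 and 0 counts with dsRNA 2, 6 and 0 counts with dsRNA 3, and 112 and 39 counts in control cells. The sums of 9 counts with Hlc dsRNA and 151 in control cells gave a ratio of 0.0211 after scaling (95% exact interval 0.00946 to 0.0411, counting error only), and the fitted change was -5.60 (adjusted p = 0.00236, SE 1.03). Most of the control counts came from 1 library, and without it, control replicate 1, the change of -4.40 was not called (adjusted p = 0.0511, the highest of its alternatives, which began at 7.54e-04). With each other library left out in turn its fitted change ran from -7.88 to -5.01. Tsp42Ep had 1.37 and 0.821 CPM with dsRNA 2, 0.719 and 0.787 CPM with dsRNA 3, and 2.11 and 1.34 CPM in control cells. Its groups overlapped, and its change of -0.92 (adjusted p = 0.0313, SE 0.30) was not called without control replicate 1, dsRNA 2 replicate 2 or either dsRNA 3 library, nor under upper-quartile scaling or library size alone. Over all alternatives its adjusted p ran from 0.019 to 0.357.

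Of the remaining tested members of the cluster, Tsp42Ej, Tsp42Eb, Tsp42Ec and Tsp42En were not called. Tsp42Ej, the gene sunglasses, which takes part in rhodopsin degradation in the eye, had 21 and 6 counts with dsRNA 2, 16 and 21 counts with dsRNA 3, and 9 and 40 counts in control cells. Tsp42En had 21 and 11 counts with dsRNA 2, 18 and 9 counts with dsRNA 3, and 3 and 17 counts in control cells. Both were uneven between libraries of a group, and their changes were -1.07 (adjusted p = 0.2, SE 0.67) and 0.17 (adjusted p = 0.865, SE 0.81). Tsp42Eb had 12 and 2 counts with dsRNA 2, 4 and 14 counts with dsRNA 3, and 11 and 24 counts in control cells. Tsp42Ec had 4 and 9 counts with dsRNA 2, 3 and 0 counts with dsRNA 3, and 7 and 15 counts in control cells. These 2 lay below both controls in all 4 Hlc dsRNA libraries on the CPM scale, with changes of -1.66 (adjusted p = 0.0903, SE 0.75) and -2.13 (adjusted p = 0.108, SE 1.02). Limma-voom called the decrease of Tsp42Ec.

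**Figure D3:**
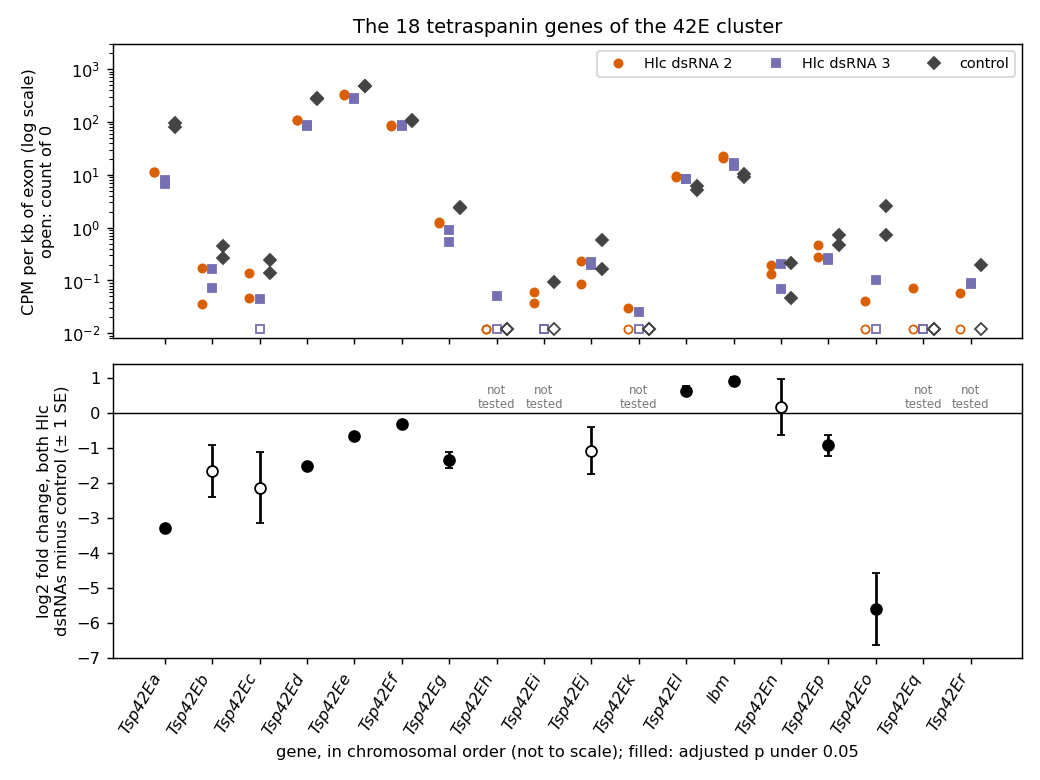
The 18 members of the 42E cluster in chromosomal order, with the level of each library in CPM per kb of exon on a log axis above and the log2 fold change of both Hlc dsRNAs minus control with bars of 1 SE below. Filled symbols mark an adjusted p under 0.05; Tsp42Ea, Tsp42Ed and Tsp42Ee lie below 0, lbm and Tsp42El above it, and Tsp42Ef, shown as lower, is higher by 0.26 with library size alone.

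Outside the cluster, 3 members rose by more than 2-fold. Tsp96F (chromosome 3R, 25872900 to 25881427) had 10.97 and 8.81 CPM with dsRNA 2, 9.47 and 10.04 CPM with dsRNA 3, and 2.69 and 2.02 CPM in control cells. All treated libraries were well above the controls, 4.19-fold on average, with a change of 2.07 (adjusted p = 3.80e-05, SE 0.18). Tsp5D (chromosome X, 6069131 to 6074857) had 3.29 and 2.89 CPM with dsRNA 2, 3.55 and 3.46 CPM with dsRNA 3, and 0.103 and 0 CPM in control cells. It was the one member at or above 1 CPM in all 4 Hlc dsRNA libraries and below it in both controls. Over the groups Tsp5D had 1024 counts with Hlc dsRNA and 5 in control cells, a scaled ratio of 72.5 (95% exact interval 30.96 to 224, counting error only), and a fitted change of 6.09 (adjusted p = 9.81e-05, SE 0.62). TM4SF (chromosome 2R, 23878197 to 23880860) had 82 and 78 counts with dsRNA 2, 41 and 47 counts with dsRNA 3, and 0 and 5 counts in control cells. Its sums of 248 counts with Hlc dsRNA and 5 in control cells gave a ratio of 17.6 (95% exact interval 7.42 to 54.5), and the fitted change was 4.08 (adjusted p = 0.00237, SE 0.75). Since 1 control library of each gene had no count, the fitted size moved with the controls used: without control replicate 1 it was 10.93 for Tsp5D and 3.22 for TM4SF, and without control replicate 2 it was 4.98 for Tsp5D and 8.81 for TM4SF.

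Tsp66E (chromosome 3L, 8912499 to 8932065) fell. It had 21.6 and 21.2 CPM with dsRNA 2, 19.3 and 14.98 CPM with dsRNA 3, and 61.4 and 59.8 CPM in control cells. The groups were far apart, and the change was -1.66 (adjusted p = 6.74e-06, SE 0.10), 3.17-fold lower. Of its exonic bases 7.42% are shared with mfr on the opposite strand, and 6.36% of those of Tsp5D with CG5928, so that share of each is uncertain. Tsp97E (chromosome 3R, 26961064 to 26964817), for which RefSeq lists the synonym Tspan31, had 24.2 and 22.7 CPM with dsRNA 2, 27.02 and 25.9 CPM with dsRNA 3, and 30.5 and 29.8 CPM in control cells. Its small change of -0.28 (adjusted p = 0.0113, SE 0.071) was called lower, but not without control replicate 1 or under upper-quartile scaling (adjusted p = 0.0576 and 0.153, in a range of 0.002 to 0.153 over its alternatives), and was 0.31 with library size alone. With dsRNA 3 alone it was not called. Tsp39D (chromosome 2L, 21344607 to 21358271) had 72.3 and 70.9 CPM with dsRNA 2, 78.7 and 68.9 CPM with dsRNA 3, and 71.5 and 73.5 CPM in control cells. These levels lay within the spread of the libraries, with a change of 0.0034 (adjusted p = 0.967, SE 0.063), although library size alone gave a called change of 0.58.

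The other 13 members did not pass the filter and had at most 11 counts in any library. Tsp47F, Tsp66A and Tsp68C had 0 counts in all 6 libraries. For Tsp47F and Tsp68C this allows up to 0.00972 CPM over the 4 Hlc dsRNA libraries and 0.0275 CPM over the 2 control libraries, from counting error only. For Tsp66A, 100% of the exonic bases are shared with CG42661 or CG42660 on the same strand, so its 0 sets no such limit. Counts appeared with Hlc dsRNA and were 0 in both controls for Tsp29Fb, Tsp42A, Tsp74F, Tsp42Eq, Tsp42Ek, Tsp42Eh and Tsp33B. The 4 Hlc dsRNA libraries together are deeper than the 2 control libraries, so a rare transcript is more likely to be counted in them. The share of all features with this pattern was not computed. The limit of 3 counts over the control group, with the Hlc dsRNA counts taken as exact, gave ratios after scaling. These were 3.19 for Tsp29Fb, with 27 counts, 2.95 for Tsp42A, with 25 counts, and 1.77 for Tsp74F, with 15 counts. They are not lower bounds. The exact intervals, which cover counting error only, began lower, at 2.42 for Tsp29Fb, 2.23 for Tsp42A and 1.27 for Tsp74F. Tsp29Fb, Tsp42A and Tsp74F were not tested in the fit reported here, and Tsp74F had 0 counts in dsRNA 3 replicate 1. The others of these 7 had 4 to 6 counts. Tsp42Er, Tsp42Ei and Tsp29Fa had counts in both groups. Tsp42Er had 16 counts with Hlc dsRNA and 10 in control cells, Tsp42Ei had 9 with Hlc dsRNA and 6 in control cells, and Tsp29Fa had 19 with Hlc dsRNA and 5 in control cells. For Tsp29Fa, 53.6% of the exonic bases are shared with an antisense RNA on the opposite strand, so its counts are uncertain.

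Between the dsRNAs, no member differed at an adjusted p under 0.05 for dsRNA 3 minus dsRNA 2 by edgeR, where 0.0797% of all tested features were called, 0.0177% higher and 0.062% lower. At an unadjusted p under 0.05, 6 members passed, all lower with dsRNA 3, where 20.3% of all features did in either direction. That share was not split by direction, so the shared direction of the 6 cannot be set against the table. The nearest to the threshold was Tsp42Ed, with a difference of -0.36 (adjusted p = 0.0586, SE 0.05), and then Tsp42Ea, with -0.64 (adjusted p = 0.0615, SE 0.10). When dsRNA 3 replicate 1 was left out edgeR called 2 members, while with all libraries DESeq2 called 4 and limma-voom 3, in each case lower, with Tsp42Ed and Tsp42Ea among them. Of all features, 1.23% were called in either direction without that library, 15.7% by DESeq2, which gave an adjusted p for 14 members, and 2.9% by limma-voom. Against the shared controls, Tsp42Ea changed by -2.97 with dsRNA 2 and -3.60 with dsRNA 3, Tsp42Ed by -1.34 with dsRNA 2 and -1.70 with dsRNA 3, and Tsp42Ee by -0.54 with dsRNA 2 and -0.76 with dsRNA 3. The increase of lbm was 1.15 with dsRNA 2 and 0.69 with dsRNA 3, and its difference between the dsRNAs of -0.46 (adjusted p = 0.105, SE 0.11) was not called. Tsp96F changed by 2.08 with dsRNA 2 and 2.06 with dsRNA 3 and TM4SF by 4.59 with dsRNA 2 and 3.57 with dsRNA 3.

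Integrins are known partners of tetraspanins, and tetraspanins are carried on vesicles that the endosomal sorting machinery forms. Of 15 integrin and adhesion genes 13 were found and tested, 3 rose and 10 fell, and the median change was -0.91, where 32.2% of all tested features rose and 32.6% fell with a median of 0.04. The tensin gene by rose most, with a change of 3.64 (adjusted p = 7.17e-07, SE 0.14), and the vinculin gene Vinc, the adaptor parvin and the alpha integrin scb fell, with changes of -1.37, -0.91 and -2.09. With library size alone 3 rose and 7 fell, where 77.7% of all calls were higher. Of 21 endosome and ESCRT genes, which sort membrane proteins into vesicles, 20 were tested, 1 rose and 19 fell, with a median of -0.92, against the same shares and median of all features. The one that rose, Rab27, changed by 0.29 and was not called without dsRNA 2 replicate 2, dsRNA 3 replicate 1 or control replicate 2. ALiX changed by -1.56 (adjusted p = 1.18e-07, SE 0.039), and Chmp1, TSG101 and shrb by -1.49, -1.13 and -0.95. With library size alone 3 of these genes rose and 11 fell, beside the same 77.7% of all calls that were higher.

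**Figure D4:**
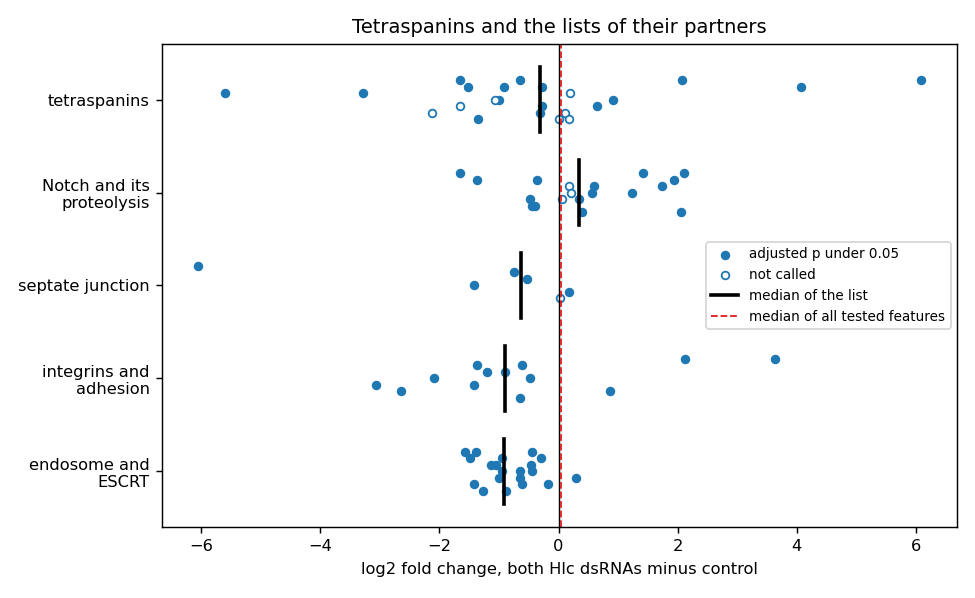
Log2 fold change, both Hlc dsRNAs minus control, of each tested tetraspanin and of each gene in the 4 partner lists, with filled symbols for an adjusted p under 0.05, black bars for list medians and a dashed line for the median of all tested features. The medians run from 0.35 for the Notch list to -0.92 for the endosome list, with the tetraspanins at -0.32; under library size alone the tetraspanin median was 0.26.

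The split of called members followed the scaling: 5 rose and 11 fell under TMM or the size factors of DESeq2, 6 rose and 8 fell under upper-quartile scaling, and 11 rose and 6 fell under library size alone. The share of higher calls among all called features was 49.6% with TMM, 57.4% under upper-quartile scaling and 77.7% with library size alone, while among members it was 31.2%, 42.9% and 64.7% in the same order. The members' median was -0.17 under upper-quartile scaling and 0.26 on library size alone, below the medians of 0.19 and 0.62 over all tested features. Tsp42Ea, Tsp42Ed, Tsp86D, Tsp66E, Tsp42Eg and Tsp42Eo were called lower, and Tsp5D, TM4SF, Tsp96F, lbm and Tsp42El higher, under all 4 scalings. Of these, Tsp42Eg was low in all groups and the counts of Tsp42Eo are uncertain. Tsp3A, Tsp42Ef and Tsp97E turned to higher with library size alone.

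**Figure D5:**
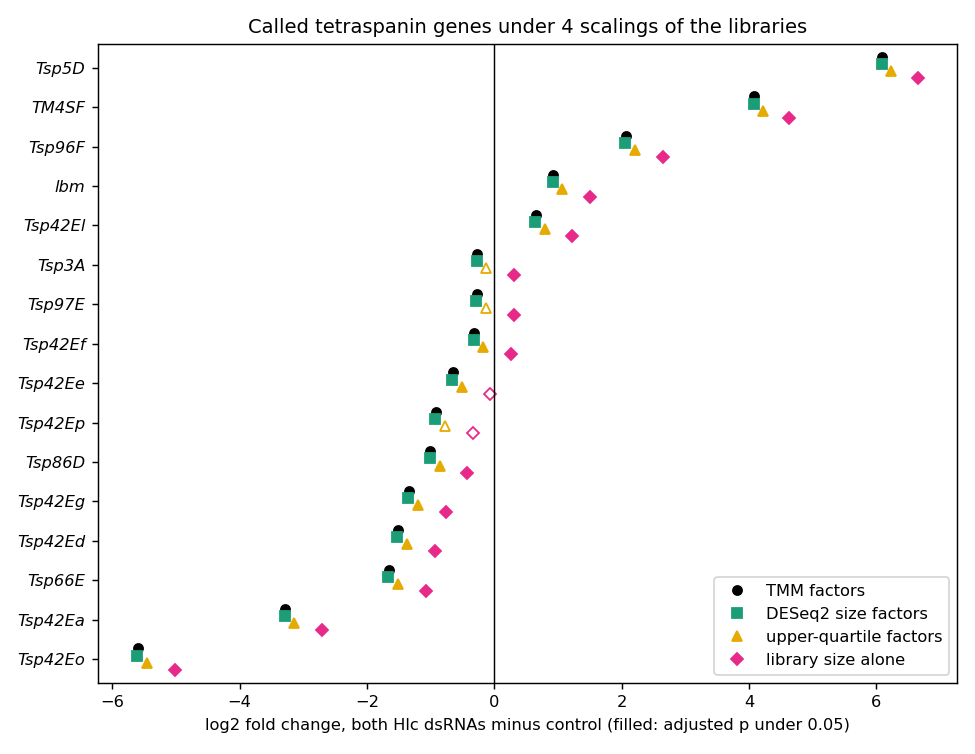
Log2 fold change of the 16 called members, both Hlc dsRNAs minus control, under TMM, under the size factors of DESeq2, under upper-quartile scaling and on library size alone, filled where the adjusted p was under 0.05. Library size alone shifts every member to the right, and Tsp3A, Tsp42Ef and Tsp97E cross 0 to 0.31, 0.26 and 0.31.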

How the data were processed

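PolyA RNA of 6 S2 libraries was measured, 2 in each of 3 groups. The authors deposited whole-number counts per gene. Trimmomatic 0.36, TopHat2 2.1.0, StringTie 2.1.7 and build BDGP6 are named in the submitters' processing notes, without roles. How reads were counted, with which strand setting and with what treatment of multi-mapping reads, is not given in the sources used here. The deposited counts were filtered with filterByExpr, scaled by TMM and tested with edgeR 4.0.16 (quasi-likelihood, R 4.3.3) over all groups, leaving 11293 features, with Benjamini-Hochberg adjustment over these and calls at 0.05. SE is the log2 change over the root of the F statistic. The steps were tested on simulated data. Gene positions and exon lengths come from Ensembl BDGP6.54 release 115, which matched all 36 members. DESeq2 1.42.0 and limma 3.58.1 served as alternatives, beside other scalings, filters, a replicate block and leaving out each library. Replicates were not duplicates of one library (chi-square over its degrees of freedom 27.4 to 37.9) and were each counted once; p-values measure the spread between these libraries, which may be technical. Members, partner lists and tests were chosen with earlier results of these data known. Every member is accounted for; those kept by the filter are given per library, and from each partner list up to 4 genes with the smallest adjusted p. Intervals are exact binomial at 95% and cover counting error only. The intervals, and the limits for genes without counts, take the deposited counts as numbers of independent reads, which could not be checked here.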

Additional observations from a re-analysis of the deposited data

How the results depend on the processing

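The number of called members was the same as reported under 6 of 14 alternatives for both dsRNAs (range 13 to 17), under 8 of 15 for dsRNA 2 (12 to 15) and under 9 of 15 for dsRNA 3 (12 to 17). For both dsRNAs, leaving out 1 library gave 13 to 16 calls, with 5 higher and 8 to 11 lower. For dsRNA 2 it gave 12 to 15, with 5 higher and 7 to 10 lower, and for dsRNA 3 13 to 15, with 5 to 6 higher and 8 to 10 lower. Between the dsRNAs it gave 0 to 2 calls, with 0 higher and 0 to 2 lower, and over the partner lists 48 to 53 calls, against 54 with all libraries. With library size alone 11 members were higher and 6 lower for both dsRNAs, 9 and 5 for dsRNA 2, and 10 and 7 for dsRNA 3. Of all calls, 77.7%, 78.9% and 78% were then higher, in the same order. The share of all features called also moved with the setting. For both dsRNAs it was 43.5% with no low-count filter, where 16 of 33 tested members were called. With a filter of 1 CPM in at least 4 libraries it was 77.2%, where 13 of 16 were called. Between the dsRNAs, a filter of 1 CPM gave 2 calls, DESeq2 4 and limma-voom 3, in each case lower. Under these settings 2.05%, 15.7% and 2.9% of all features were called in either direction. The cause was not tested.

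With library size alone the direction reversed for Tsp3A (0.31), Tsp42Ef (0.26), Tsp97E (0.31) and scrib (0.0585), and, in single comparisons, for Tsp42Ee with dsRNA 2 (0.0357), Tsp3A (0.31 with dsRNA 2 and 0.32 with dsRNA 3), Tsp42Ef (0.25 and 0.28) and Tsp97E (0.21 and 0.40). Tsp39D, near 0, was -0.0037 with DESeq2 size factors, -0.0038 by DESeq2 and -0.0026 by limma-voom. Leaving out 1 library gave -0.0463 to 0.0482 for Tsp39D, -0.11 to 0.33 for Tsp26A, -1.71 to 0.13 for Tsp42Ej and -0.51 to 1.65 for Tsp42En, none of them called in the full set.

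The replicate numbers did not pair the libraries (correlations of the replicate differences -0.04, -0.01 and -0.02), and with a replicate block 16 members were called for both dsRNAs, 15 with each dsRNA and 0 between them. A fit on only the groups compared was not a separate alternative for both dsRNAs, since that comparison uses all groups. With 2 libraries per group, the 13 members that did not pass the filter were not tested in the fit reported here. With no low-count filter 33 members were tested.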

Other observations

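Of 15 genes between or just outside the members of the 42E cluster, chosen for position, 9 were tested with both Hlc dsRNAs, and 2 rose, 3 fell and 4 were not called. CG30159 and CG30156 were those that rose. Among all tested features 64.8% were called, 32.2% higher and 32.6% lower. CG17002, left of Tsp42Ea, had 29.2 and 27.9 CPM with dsRNA 2, 29.8 and 33.1 CPM with dsRNA 3, and 121 and 122 CPM in control cells, a change of -2.02 (adjusted p = 1.91e-07, SE 0.057) by edgeR's quasi-likelihood test. CG43646, right of Tsp42Ee, had 0.256 and 0.158 CPM with dsRNA 2, 0.0765 and 0.112 CPM with dsRNA 3, and 3.49 and 3.72 CPM in control cells, and its change was -4.64 (adjusted p = 5.83e-06, SE 0.27). CG43647, the next gene, had 0.122 and 0.0948 CPM with dsRNA 2, 0.275 and 0.143 CPM with dsRNA 3, and 0.636 and 0.711 CPM in control cells, with a change of -2.15 (adjusted p = 0.00607, SE 0.48). Pgant3, which encodes an enzyme of O-glycosylation and lies between Tsp42Ep and Tsp42Eq, had 55.97 and 49.4 CPM with dsRNA 2, 59.9 and 59.9 CPM with dsRNA 3, and 59.8 and 60.6 CPM in control cells and was not called (adjusted p = 0.201).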
